A study of Homo sapiens with 30 samples.

Results

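ZEB1, ZEB2, SNAI1, SNAI2, VIM, CDH1, CDH2, EPCAM, ESRP1 and GRHL2 are genes whose levels are commonly read as signs of an epithelial or a mesenchymal cell state. These 10 genes were taken by symbol from the 57773 genes of 4 RNA-seq count tables of human prostate cancer cell lines. The members were chosen by symbol after earlier results of these libraries were known, and the levels of ZEB1 under an LSD1 inhibitor and of SNAI2 under androgen are taken here as the values they were selected on. Both are therefore described by their counts, with no test (LSD1 is a histone demethylase). The p-values given for the other members set a change against the spread between libraries and are not independent evidence.

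VCaP cells received 20 nM of a control siRNA or of an siRNA against RB1 for 2 days, in medium with 10% serum per the labels, although the library names refer to charcoal-stripped serum (3 libraries per group). All C4-2 libraries came from C4-2-tet-shRB cells, a C4-2 line in which doxycycline (0.05 µg/ml) induces a short hairpin RNA against the retinoblastoma gene RB1. In the inhibitor experiment these cells had no doxycycline or 3 days of it, then DMSO or GSK2879552, an LSD1 inhibitor, at 10 µM for 24 h, in medium with 5% charcoal-stripped serum (4 groups, 2 libraries each). The androgen experiment crossed doxycycline for 0, 3 or 30 days with 24 h of vehicle or of 10 nM dihydrotestosterone (DHT), in 8% charcoal-stripped plus 2% regular serum (6 groups, 1 library each). LNCaP cells, the parental line of C4-2, had vehicle or 1 µM GSK2879552 for 2 days in 5% charcoal-stripped serum (1 library each). No C4-2 group analysed here carried a hairpin with another target, so the effects of RB1 loss, doxycycline and hairpin induction cannot be told apart in C4-2 cells. Nothing in the labels says that replicates were separate cultures, so a p-value here reflects library-to-library spread that may be technical.

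Epithelial cells hold together through E-cadherin (CDH1) and EPCAM, and mesenchymal cells carry vimentin (VIM) and N-cadherin (CDH2). The zinc finger repressors of the ZEB and SNAI families bind E-box sequences in epithelial promoters, CDH1 among them, and recruit corepressors that include LSD1 and CtBP. The splicing factor ESRP1 and the transcription factor GRHL2 maintain the epithelial program, and GRHL2 and ZEB1 are known to repress each other.

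Depth was 4311455 to 7107036 counted reads per library in VCaP cells, 14515932 to 22326960 in the inhibitor experiment, 14898454 to 16856486 in the androgen experiment, and 14036346 and 13085157 in LNCaP cells. RB1 fell in each experiment that targeted it. Its fitted log2 fold change was -3.22 ± 0.12 (SE) in VCaP cells, -2.18 ± 0.18 with doxycycline and DMSO, and -2.49 ± 0.11 and -2.98 ± 0.11 after 3 and 30 days of doxycycline. KDM1A, which encodes LSD1, had no call under the inhibitor (log2 fold change 0.02 ± 0.07 without doxycycline). The luminal prostate markers KLK3, KLK2, HOXB13, FOLH1, TMPRSS2, KRT8 and KRT18 each had at least 10 counts in every group. Of 3 basal genes, KRT5 was at 0 in every group, and the 3 summed to 5.81 to 7.89 CPM in VCaP cells and to at most 0.625 CPM in the other lines. The 5 leukocyte genes summed to at most 2.64 CPM. In bulk RNA, fewer cells expressing a gene and less RNA per cell cannot be told apart. Mitochondrial genes took 3.48% and 4.48% of reads in the 2 DMSO libraries without doxycycline and 5.02% to 5.75% in the other 6 libraries of that experiment. Every member call in that experiment was also made with these genes left out.

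RefSeq start-site windows (GRCh38.p14) are shown for ZEB1 and VIM, because these were the members that stood higher under the inhibitor. The counts themselves were made on hg19, and no coordinate was carried over. The stretches end at the base before the annotated start, and capitals mark the E-box CACCTG or its reverse complement CAGGTG, which ZEB and SNAI proteins bind. Of 7 ZEB1 windows of 300 bases (250 before the start), 2 held this E-box on either strand, and the single VIM window held none. The E-box was found in 20.6% of 35116 windows of the same length. The ZEB1 stretch shown comes from 1 of the 2 windows with this E-box and lies at chr10:31318167-31318416 (plus strand). It overlaps no annotated exon of ZEB1 in GENCODE v29. The other ZEB1 stretch that overlaps no exon, at chr10:31319518-31319767, is not shown, and its window held no E-box. The VIM stretch lies at chr10:17227991-17228240 (plus strand) and overlaps no annotated exon of VIM.
ZEB1: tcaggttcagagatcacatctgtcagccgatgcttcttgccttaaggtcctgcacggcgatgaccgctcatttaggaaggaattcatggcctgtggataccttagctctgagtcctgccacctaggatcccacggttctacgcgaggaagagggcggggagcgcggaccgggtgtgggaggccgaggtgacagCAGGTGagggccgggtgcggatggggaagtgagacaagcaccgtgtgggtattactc
VIM: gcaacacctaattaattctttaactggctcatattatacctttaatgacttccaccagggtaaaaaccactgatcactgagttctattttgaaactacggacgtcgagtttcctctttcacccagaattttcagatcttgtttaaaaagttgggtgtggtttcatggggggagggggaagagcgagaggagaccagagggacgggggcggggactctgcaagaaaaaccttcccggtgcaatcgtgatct
A match is a description of the letters and says nothing of binding in these cells.

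ZEB1, a repressor of CDH1, was close to silent in all 3 lines and was counted above a few reads only in libraries given the LSD1 inhibitor. In C4-2 cells without doxycycline it had 0 and 1 counts with DMSO and 88 and 54 counts with GSK2879552, or 4.05 and 3.38 CPM (counts scaled to a common library size by TMM). With doxycycline it had 3 and 2 counts with DMSO and 73 and 91 with the inhibitor, or 3.74 and 5.68 CPM. All 4 inhibitor libraries were above all 4 DMSO libraries. The summed counts were 142 against 1 without doxycycline, a scaled ratio of 114 with a 95% counting interval of 20.1 to 4526, and 164 against 5 with doxycycline, a ratio of 39.6 (16.6 to 124). These exact binomial intervals cover counting error only. In LNCaP cells ZEB1 had 0 counts with vehicle and 29 (2.20 CPM) with the inhibitor. The ratio was 10.2 with the vehicle library set to a floor of 3 counts, and the lower 95% counting limit was 7.76.

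**Figure D1:**
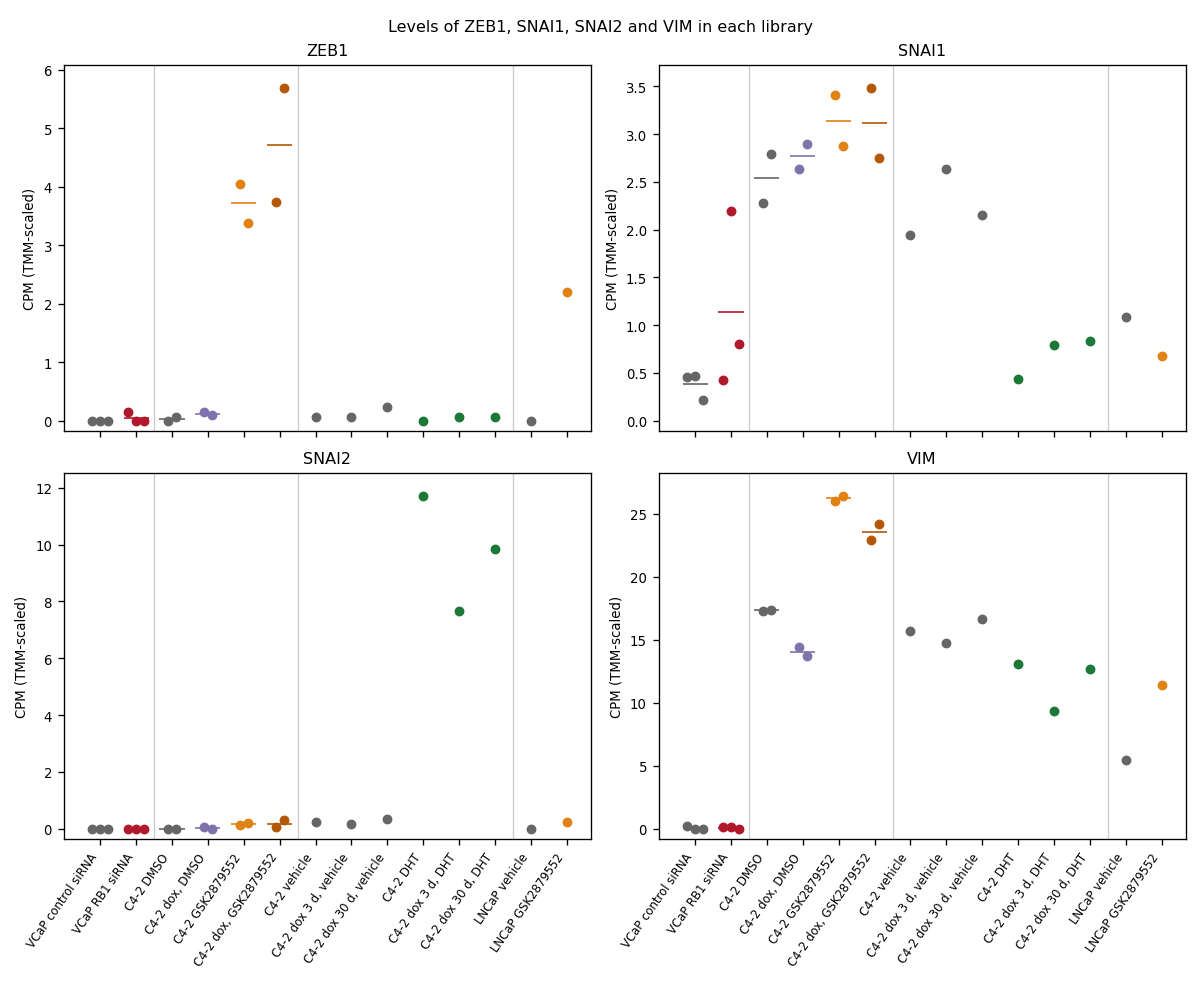
Each point is 1 library and shows the level in TMM-scaled CPM on a linear axis from 0, with a line at the mean of groups with more than 1 library. Vertical grey lines separate the 4 count tables, which were scaled separately. ZEB1 reaches 3.38 to 5.68 CPM only in the C4-2 libraries with GSK2879552 and 2.20 CPM in the LNCaP library with it, while SNAI2 reaches 7.66 to 11.7 CPM only with DHT.

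Outside the inhibitor libraries ZEB1 stayed within a few reads in every group. The 6 libraries of the androgen experiment held 8 counts in all, with 0 to 4 counts each, and the 6 VCaP libraries held 1 count. A ZEB1 difference with doxycycline alone was not detectable at this depth, since those 2 libraries held 5 counts against 1 (scaled ratio 3.52, counting interval 0.394 to 167). Between the inhibitor groups, ZEB1 with doxycycline was 1.23 times that without it (counting interval 0.973 to 1.55). Ordered by mean CPM, the groups with ZEB1 above 1 CPM were C4-2 with doxycycline and inhibitor, C4-2 with inhibitor alone and LNCaP with inhibitor. The 2 C4-2 groups did not separate, because 1 library with doxycycline (3.74 CPM) lay between the 2 without it.

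The antisense gene ZEB1-AS1, which starts near the ZEB1 start site, had no call under the inhibitor. It had 196 counts with DMSO and 284 with the inhibitor without doxycycline (log2 fold change 0.21 ± 0.16, adjusted p = 0.624 in edgeR), and 297 and 319 with doxycycline (0.38 ± 0.14, adjusted p = 0.313). In LNCaP cells it had 43 and 51 counts, a ratio of 1.25 (0.815 to 1.92). The strand setting of the counting is not given in the sources used here, so reads of overlapping antisense partners may not be separated.

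ZEB2, the paralogue of ZEB1 with similar targets, had 0 counts in all 16 C4-2 and LNCaP libraries, the inhibitor libraries included. The 6 VCaP libraries held 4 counts, 2 in each group.

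SNAI2 (Slug), a repressor of the SNAI family, had the largest ratio of the set with androgen. Vehicle libraries held 4, 3 and 6 counts at 0, 3 and 30 days of doxycycline, and DHT libraries held 161, 107 and 142 counts, or 11.7, 7.66 and 9.86 CPM. The 3 ratios were 46.6 (counting interval 17.9 to 173), 45.7 (15.2 to 225) and 28.3 (12.7 to 78.4), and the intervals overlap. The lowest DHT library was that with 3 days of doxycycline. SNAI2 had 0 to 5 counts per library in the inhibitor experiment, 0 and 3 in LNCaP cells and 0 in VCaP cells.

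SNAI1 (Snail), a further repressor of CDH1, fell with DHT. At 0, 3 and 30 days of doxycycline it had 31, 47 and 37 counts with vehicle and 6, 11 and 12 with DHT. All 3 DHT libraries (0.436 to 0.833 CPM) lay below all 3 vehicle libraries (1.95 to 2.63 CPM), a change of -1.69 ± 0.30 (log2, adjusted p = 4.48e-05 in edgeR, n = 3 per group over the doxycycline levels). SNAI1 was lower and SNAI2 higher in the same 3 DHT libraries. In the inhibitor experiment SNAI1 had 33 to 74 counts per C4-2 library. Without doxycycline the DMSO libraries (2.28 to 2.80 CPM) lay below the inhibitor libraries (2.88 to 3.40 CPM). With doxycycline the DMSO (2.64 to 2.90 CPM) and inhibitor libraries (2.75 to 3.48 CPM) overlapped. The fitted changes were 0.32 ± 0.22 without and 0.18 ± 0.21 with doxycycline (adjusted p = 0.604 and 0.830 in edgeR). LNCaP cells held 15 counts with vehicle and 9 with the inhibitor, a ratio of 0.631 (0.244 to 1.54). In VCaP cells SNAI1 had 2, 2 and 1 counts with the control siRNA and 3, 14 and 5 with the RB1 siRNA. Of those 22 counts 14 came from 1 library, and the groups overlapped.

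VIM, the intermediate filament protein of mesenchymal cells, rose moderately with the inhibitor in C4-2 cells. Without doxycycline it stood at 17.3 and 17.3 CPM with DMSO and at 26.03 and 26.4 CPM with GSK2879552 (log2 0.60 ± 0.10, adjusted p = 0.00567 in edgeR, n = 2 per group). With doxycycline it stood at 14.4 and 13.7 CPM and at 22.9 and 24.2 CPM (log2 0.74 ± 0.10, adjusted p = 0.000369 in edgeR). The inhibitor libraries did not overlap with their controls. Without the first or the second DMSO library the change without doxycycline kept its size (log2 0.60 in both) but not its call (adjusted p = 0.125 and 0.0901), while the call with doxycycline held without each library in turn. The difference between these changes had no call ( 0.15 ± 0.14, adjusted p = 0.987 in edgeR). In LNCaP cells VIM went from 76 to 151 counts (5.47 to 11.4 CPM), a ratio of 2.09 (1.58 to 2.79), and was at rank 143 of 11955 genes with at least 100 counts. In that pair 2.80% of genes passed 2-fold in either direction.

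The summed level of 10 fibroblast and smooth muscle markers was 55.3 to 60.0 CPM with DMSO and 47.7 to 60.1 CPM with the inhibitor without doxycycline, and 46.2 to 47.2 and 48.5 to 51.0 CPM with doxycycline. In LNCaP cells this sum went from 38.8 to 25.0 CPM, with PDGFRA and DCN at 0 in both libraries. The sum of 5 endothelial markers went from 23.3 to 5.76 CPM in that pair, with KDR and CDH5 at 0 in both libraries and 1 of the 5 at 10 counts or more in each. In C4-2 cells of the inhibitor experiment it was 6.55 to 8.69 CPM with DMSO and 6.35 to 6.75 CPM with the inhibitor, and 6.87 to 7.13 and 4.86 to 6.31 CPM with doxycycline. The part of these markers in the VIM and ZEB1 values was not tested. In the doxycycline inhibitor libraries DES and PDGFRA were at 0.

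VIM in the other comparisons was lower with DHT and near absent in VCaP cells. It stood at 15.7, 14.8 and 16.7 CPM with vehicle and at 13.1, 9.31 and 12.7 CPM with DHT at 0, 3 and 30 days of doxycycline (log2 -0.43 ± 0.10, adjusted p = 0.00109 in edgeR). With DESeq2 this change had an adjusted p of 0.0541. Doxycycline with DMSO gave VIM a change of -0.30 ± 0.10 (adjusted p = 0.0880). The 6 VCaP libraries held 3 VIM counts in all. The antisense gene VIM-AS1 had changes of 0.65 ± 0.26 and 0.63 ± 0.24 under the inhibitor, with no call (adjusted p = 0.319 and 0.324 in edgeR).

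CDH2 (N-cadherin), whose rise is a classical sign of mesenchymal change, was counted only in VCaP cells, apart from 1 read in a C4-2 library with doxycycline and inhibitor. The control siRNA libraries held 5, 6 and 6 counts and the RB1 siRNA libraries 3, 2 and 2, although the latter were sequenced more deeply. In CPM these were 1.14 to 1.39 and 0.313 to 0.422, with no overlap. The ratio was 0.276 with a counting interval of 0.0967 to 0.700. The gene fell short of the filter on low counts and was not tested.

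**Figure D2:**
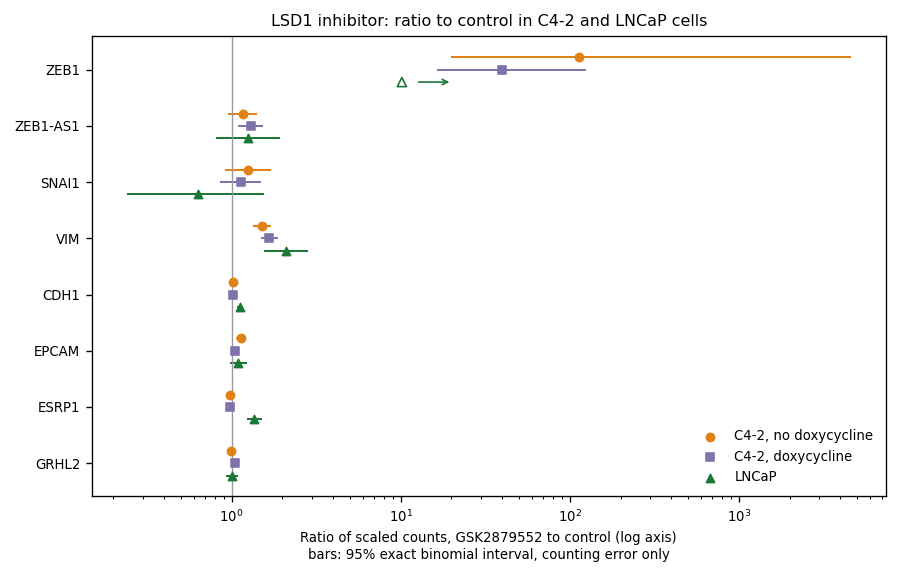
Ratio of scaled counts with GSK2879552 to counts with control on a logarithmic axis, for 3 comparisons (C4-2 without and with doxycycline, LNCaP), with bars for the 95% exact binomial interval of the counts. The open triangle with an arrow is ZEB1 in LNCaP cells against a floor of 3 counts, since the vehicle library held 0, and it is not a counting limit. ZEB1 lies between 39.6 and 114 in C4-2 cells and is drawn at 10.2 in LNCaP cells, VIM lies between 1.51 and 2.09, and the intervals of ZEB1-AS1 reach no further than 1.92.

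No epithelial member had a call under the inhibitor in C4-2 cells. With 2 libraries per group this does not show that their levels were kept. CDH1 stood at 908 and 946 CPM with DMSO and at 958 and 927 CPM with the inhibitor, and with doxycycline at 1047 and 1070 against 1070 and 1079 CPM. Its fitted changes were 0.02 ± 0.05 in both settings (adjusted p = 0.905 and 0.936 in edgeR). EPCAM changed by 0.17 ± 0.08 and 0.07 ± 0.08 (adjusted p = 0.416 and 0.821 in edgeR). Without doxycycline EPCAM stood at 72.9 to 78.3 CPM with DMSO and at 81.0 to 89.4 CPM with the inhibitor. This change was 0.11 to 0.23 (log2) over 14 alternatives. ESRP1 and GRHL2 had fitted changes between -0.04 and 0.06. ZEB1 aside, 6 members passed the filter, and 1 of them, VIM, was called in each setting, as higher. Over all genes 0.678% were called without doxycycline (0.619% higher and 0.0597% lower) and 1.34% with it (1.24% higher and 0.0923% lower). No member was called in the difference between the settings, where 0.0163% of genes were. DESeq2 called no member in that difference either. In the edgeR fit of the difference, 879 of the 18423 genes had an unadjusted p under 0.05.

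In LNCaP cells, CDH1 had 8806 counts with vehicle and 9389 with the inhibitor, a ratio of 1.12 (1.09 to 1.15). ESRP1 went from 966 to 1251 counts, a ratio of 1.36 (1.25 to 1.48), and EPCAM and GRHL2 had ratios of 1.10 (0.986 to 1.22) and 1.01 (0.942 to 1.08). With 1 library per group these ratios have no replicate check. The dose was 1 µM for 2 days in LNCaP cells and 10 µM for 24 h in C4-2 cells, so the sizes in the 2 lines were not compared.

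**Figure D3:**
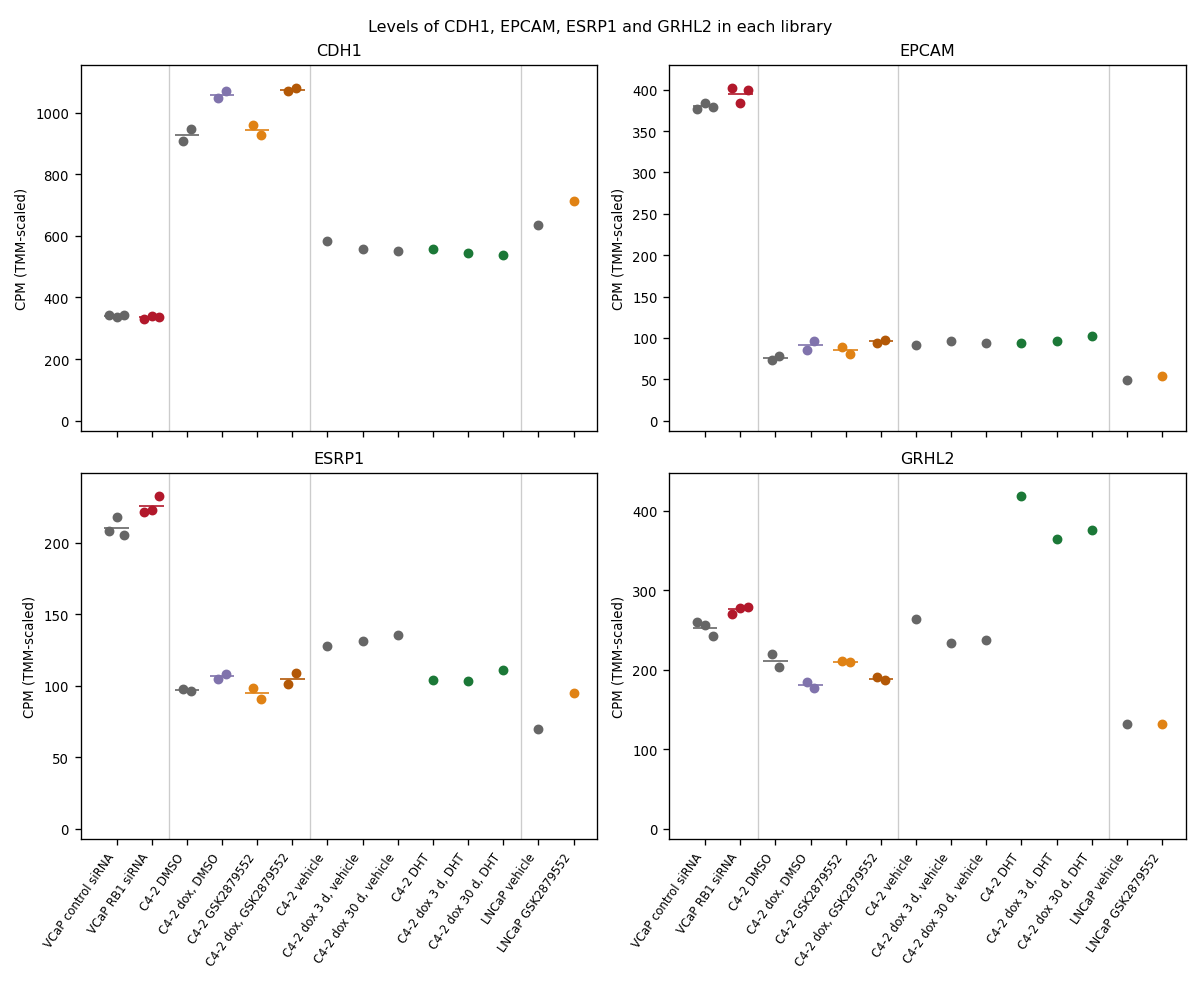
Each point is 1 library and shows the level in TMM-scaled CPM on a linear axis from 0, with a line at the mean of groups with more than 1 library. Vertical grey lines separate the 4 count tables. GRHL2 is at 365 to 418 CPM in the 3 DHT libraries against 234 to 263 CPM in their vehicle controls, and EPCAM is at 377 to 402 CPM in VCaP cells against 72.9 to 102 CPM in C4-2 cells.

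Doxycycline for 3 days with DMSO was accompanied by small changes of the epithelial genes in opposite directions. CDH1 went from 908 and 946 to 1047 and 1070 CPM (log2 0.19 ± 0.05, adjusted p = 0.0407 in edgeR, n = 2 per group). GRHL2 went from 220 and 203 to 184 and 177 CPM (log2 -0.23 ± 0.06, adjusted p = 0.0370). EPCAM went from 72.9 and 78.3 to 85.1 and 96.8 CPM (log2 0.27 ± 0.08, adjusted p = 0.0553). The share of all genes that did not overlap between the groups was not computed. The lack of overlap in these 3 genes is therefore no support for a change. CDH1 and GRHL2 were the 2 calls among 7 members tested, 1 higher and 1 lower, where 7.84% of all genes were called (4.25% higher and 3.59% lower). ZEB1 was among the 7 and passed the filter on low counts only through the inhibitor libraries. Both calls were lost without any 1 of the 4 libraries compared or of the 2 with doxycycline and inhibitor, with CDH1 at 0.16 to 0.22 and GRHL2 at -0.29 to -0.17, and leaving out either library with the inhibitor alone raised the count of called members from 2 to 4 by adding EPCAM and VIM.

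In the androgen experiment no member of 7 tested was called for doxycycline at 3 days (0.442% of genes called), at 30 days (4.05%) or between these times (0.321%). GRHL2 was lower at both times, by -0.18 ± 0.06 and -0.15 ± 0.06 (adjusted p = 0.256 and 0.199 in edgeR), while CDH1 had -0.05 ± 0.06 and -0.07 ± 0.06. Without the vehicle library at 0 days, GRHL2 at 3 days had a call (-0.19 ± 0.06, adjusted p = 0.0479). DESeq2 made no call among CDH1, EPCAM, ESRP1 and GRHL2 in these comparisons, and gave no adjusted p for SNAI1 and SNAI2 in any of them or for VIM at 3 and 30 days. In edgeR an unadjusted p under 0.05 was reached by 1671 genes at 3 days, 2741 at 30 days and 1275 between the times. Among these were GRHL2 at both times and VIM between the times. SNAI2, 1 of the 7 tested, passed the filter on low counts only through its DHT libraries, so its doxycycline p is not given. The 2 experiments differed in library kit and medium. For the difference between their 3-day doxycycline effects, no member of 8 tested had a call in edgeR. In that edgeR fit 1.05% of genes were called and 2168 had an unadjusted p under 0.05. ZEB1 and SNAI2 were among the 8 and passed the filter only through the inhibitor and the DHT libraries. DESeq2 made no call in the 4 members it gave an adjusted p for, CDH1, EPCAM, ESRP1 and GRHL2. For CDH1 this difference was 0.25 ± 0.09 (adjusted p = 0.197 in edgeR).

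In VCaP cells 4 members, all epithelial, passed the filter, and 1 of them was called, where 5.62% of genes were (2.96% higher and 2.65% lower). GRHL2 stood at 261, 256 and 242 CPM with the control siRNA and at 271, 278 and 279 CPM with the RB1 siRNA (log2 0.13 ± 0.04, adjusted p = 0.0337 in edgeR, n = 3 per group). This is the opposite direction to the GRHL2 change with doxycycline in C4-2 cells, and the 2 were not tested against each other. With DESeq2 its adjusted p was 0.176, and without the second or last library of either group it was 0.0652 to 0.279. ESRP1 was at 206 to 218 and 222 to 233 CPM (log2 0.10 ± 0.04, adjusted p = 0.149). EPCAM changed by 0.06 ± 0.03 and CDH1 by -0.02 ± 0.04 (adjusted p = 0.425 and 0.791).

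SNAI2 aside, androgen changed 4 of the other 6 members tested, 1 higher and 3 lower, in a comparison that called 49.0% of all genes (25.1% higher and 23.9% lower). GRHL2 went from 263, 234 and 237 CPM with vehicle to 418, 365 and 375 CPM with DHT at 0, 3 and 30 days of doxycycline (log2 0.66 ± 0.05, adjusted p = 9.08e-11 in edgeR). Its ratios at the 3 levels were 1.59, 1.56 and 1.58. ESRP1 went from 128, 131 and 135 CPM to 104, 104 and 111 CPM (log2 -0.31 ± 0.05, adjusted p = 3.46e-05). CDH1 (538 to 582 CPM in the 6 libraries) and EPCAM (91.0 to 102 CPM) had changes of -0.04 ± 0.05 and 0.06 ± 0.06 with no call (adjusted p = 0.510 and 0.445). Scaling by total counts in place of TMM shifts all DHT ratios by -0.20, -0.18 and -0.16 (log2) at the 3 levels. GRHL2 then has ratios of 1.38, 1.38 and 1.41, and ESRP1 of 0.704, 0.698 and 0.734. CDH1 goes from 0.955, 0.975 and 0.980 to 0.829, 0.862 and 0.876, below its counting interval at each of the 3 levels. EPCAM turns from 1.03 to 0.892 at 0 days and from 1.09 to 0.979 at 30 days.

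**Figure D4:**
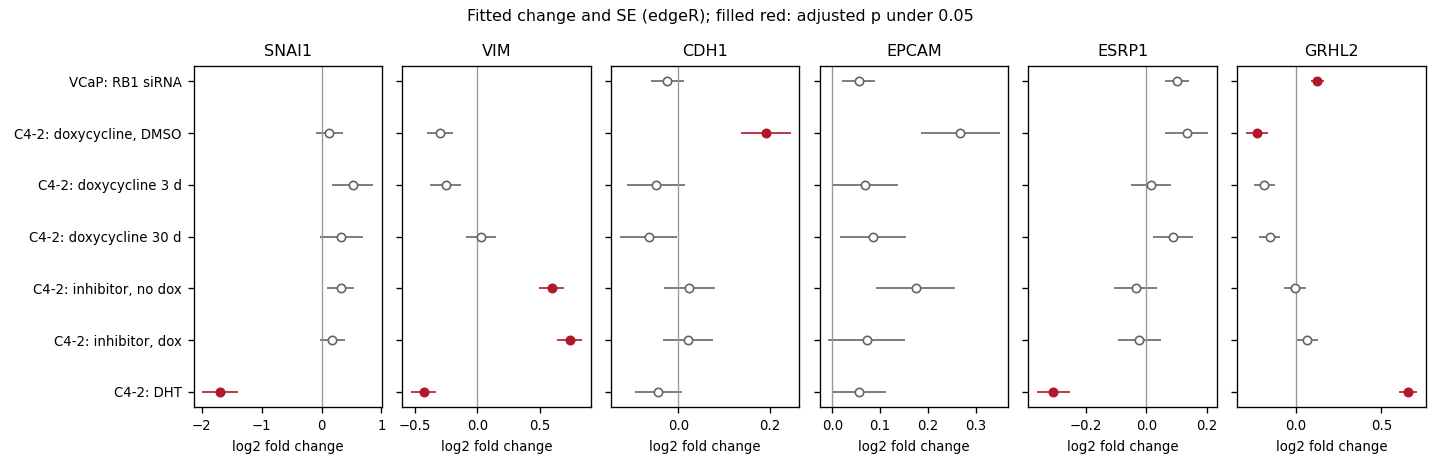
Fitted log2 fold change with its SE for the 6 members described with a test, in 7 comparisons, with filled red points where the adjusted p was under 0.05 and a separate scale for each gene. VIM is at 0.60 and 0.74 under the inhibitor and at -0.43 under DHT, SNAI1 is at -1.69 under DHT, and GRHL2 is at 0.66 under DHT and at -0.23 with doxycycline and DMSO. VCaP cells have no point for SNAI1 and VIM, which did not pass the filter there.

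The levels of the members can be set beside each other only per length, here as CPM per kilobase of exon (GENCODE v29). In control C4-2 cells of the inhibitor experiment CDH1 was at 186, GRHL2 at 39.9, EPCAM at 37.6, ESRP1 at 25.2, VIM at 9.28, SNAI1 at 1.5 and ZEB1 at 0.00494 CPM per kilobase. In control VCaP cells EPCAM led with 189, followed by CDH1 at 68.6, ESRP1 at 54.4 and GRHL2 at 47.7, while CDH2 was at 0.290 and VIM at 0.0408. In LNCaP cells with vehicle CDH1 was at 127, GRHL2 at 24.8, EPCAM at 24.6, ESRP1 at 18.0 and VIM at 2.93. At the level reached with the inhibitor, ZEB1 was at 0.577 without and 0.732 with doxycycline in C4-2 cells and at 0.342 in LNCaP cells, below SNAI1 in both C4-2 groups. Lines and experiments differ in kit and medium, which cannot be told apart from differences between them.

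Other genes of the program were described from lists drawn up with earlier results known, by counts of calls. Under the inhibitor, 2 of 16 tested epithelial transcription and splicing regulators rose in each setting and none fell. Of all genes, 0.619% were higher and 0.0597% lower without doxycycline, and 1.24% and 0.0923% with it. The 2 regulators were OVOL2 (log2 1.31 ± 0.12 and 1.05 ± 0.12) and OVOL1 (0.80 ± 0.10 and 0.78 ± 0.10), zinc finger repressors known to keep ZEB1 low. Of 30 mesenchymal matrix and cytoskeleton genes, 3 rose and none fell in each setting. They were the scaffold protein AKAP12 (1.16 ± 0.16 and 1.84 ± 0.15), the membrane linker moesin MSN (0.50 ± 0.07 and 0.72 ± 0.07) and the collagen crosslinking enzyme LOX (0.72 ± 0.15 and 0.78 ± 0.14). Their list medians were 0.08 and 0.10, beside -0.00403 and 0.00363 for all genes. Among 13 further transcription factors tested, ID1 rose without doxycycline (1.66 ± 0.30) and YAP1 with it (0.30 ± 0.07). Of 36 adhesion and polarity genes, MUC1 rose with doxycycline (0.82 ± 0.15) and none was called without it. None of 19 TGF-beta pathway genes or of 20 corepressor genes was called in either setting, nor were the 2 tested miR-200 and miR-205 host loci, whose mature miRNAs these libraries do not measure.

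In the doxycycline and RB1 siRNA comparisons, other genes of these lists were called in both directions. With doxycycline and DMSO, 4 mesenchymal genes rose and 7 fell of 30 tested, with a list median of -0.18, where 4.25% of all genes were higher and 3.59% lower. The actin gene ACTA2 rose (0.96 ± 0.23), and the myosin light chain MYL9 (-1.28 ± 0.25) and the tropomyosin TPM2 (-0.99 ± 0.21) fell. Of 36 adhesion genes 4 rose and 4 fell, among them the tight junction protein OCLN (0.47 ± 0.08) and the desmosomal protein DSP (-0.43 ± 0.05). After 30 days the matrix genes LOX (1.22 ± 0.16) and THBS1 (0.70 ± 0.08) rose and the WNT ligand WNT5A fell (-0.49 ± 0.09), among 3 higher and 2 lower of 24, where 4.05% of all genes were called. WNT5A rose with doxycycline and DMSO (0.47 ± 0.07), and its 3-day doxycycline effect differed between the experiments (0.51 ± 0.11, adjusted p = 0.0155 in edgeR). KLF4, an epithelial transcription factor, rose with doxycycline and DMSO (0.81 ± 0.11), after 30 days (0.70 ± 0.11) and in VCaP cells (0.30 ± 0.09). Fibronectin FN1 fell in VCaP cells (-0.73 ± 0.22) and with doxycycline and DMSO (-0.26 ± 0.05).

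With DHT, where 25.1% of all genes were called higher and 23.9% lower, the 6 lists with tested genes each held calls in both directions. Of 16 epithelial regulators 8 rose and 5 fell, with GATA2 at -0.70 ± 0.05. Of 24 mesenchymal genes 12 rose and 4 fell, with AKAP12 at 3.81 ± 0.12 and FN1 at -1.73 ± 0.07. Of 35 adhesion genes 20 rose and 7 fell, including the protease inhibitor SPINT1 (0.59 ± 0.05) and P-cadherin CDH3 (-1.14 ± 0.08). Of 13 further transcription factors 6 rose and 3 fell, with the YAP1 paralogue WWTR1 at 2.73 ± 0.16 and SOX9 at 1.58 ± 0.11. Of 19 TGF-beta pathway genes 9 rose, TGFB2 by 3.65 ± 0.18, and 3 fell. Of 20 corepressor genes 3 rose and 8 fell, CTBP1 by -0.99 ± 0.06.

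Among 9673 genes with at least 100 counts in each of the 14 C4-2 libraries, the gene most alike in log2 CPM was KLK2 for GRHL2 (Pearson r = 0.99), SLC31A1 for CDH1 (0.97), CEP152 for ESRP1 (0.97), FSTL1 for VIM (0.93) and SCARB2 for EPCAM (0.93). The 14 libraries come from 2 experiments that differ in kit and medium, and log2 CPM was centred within each. Mean differences between the experiments were thereby removed. These values describe shared patterns across the libraries within the experiments, and no p is given. The other members were below 100 counts in at least 1 library.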

How the data were processed

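The deposited files hold raw counts by gene for each column, without any scaling by the authors. Per the submitters' processing notes, FastQC 0.11.9, STAR 2.7.2 and featureCounts 1.6.4 were used with hg19 (GRCh37). Strand setting and annotation are not given in the sources used here. Per the labels, androgen and LNCaP libraries came from stranded total RNA kits, and VCaP and inhibitor libraries from stranded mRNA kits. Androgen and LNCaP columns that share a library name and differ by lane (chi-square ratio 0.983 to 1.01) were summed, which made 22 libraries of 30 columns.

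Each table was fitted with edgeR 4.0.16 (TMM, filterByExpr, quasi-likelihood F test, R 4.3.3). P-values were adjusted by Benjamini-Hochberg over all tested genes, and an adjusted p under 0.05 was a call. The SE was derived from the fold change and its F statistic. In the androgen table, DHT and doxycycline entered as separate terms without interaction, with residual degrees of freedom of 2 and the same DHT effect assumed at each level. Genes under the filter are given as raw counts. Ratios of summed counts carry exact (Clopper-Pearson) 95% intervals. The fits were tested on simulated data. Alternatives were RLE factors, DESeq2 1.42.0, no filter, no mitochondrial genes, each library left out, a replicate block and the 4 compared libraries alone. All 10 members are named, and of each list examples among up to 3 genes with the smallest p per direction. The members and lists were chosen with earlier results of these data known. Some genes of the marker and pathway lists are not reported here.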

Additional observations from a re-analysis of the deposited data

How the results depend on the processing

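Single-member changes and ratios between single libraries were recomputed under 865 alternatives. Of these, 791 kept direction and side of the threshold or, for ratios, stayed within the counting interval. The 865 include ZEB1 under the inhibitor and SNAI2 under DHT, on which the members were selected, so this number is not independent support. SNAI1, ESRP1 and GRHL2 under DHT kept their calls in all 10 alternatives. Depth limits the rest: ZEB1, ZEB2, SNAI2 and CDH2 outside the groups named above lie at a few counts, where a difference was not detectable. DESeq2 gave no adjusted p for SNAI1 and SNAI2 at 3 days, 30 days, between these times or between tables, for VIM in these except between the times, or for ZEB1 between tables.

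The number of members called changed as follows, and the cause was not tested. ZEB1 under the inhibitor is left out of these numbers, because the members were selected on it. VCaP cells had 1, DESeq2 gave 0, and leaving out libraries gave 0 to 1. Doxycycline with DMSO had 2, the fit of only the 4 libraries compared gave 4, and leaving out libraries gave 0 to 4. The inhibitor without doxycycline had 1, VIM, whose log2 change was 0.58 to 0.62 over 14 alternatives. Doxycycline for 3 days had 0, with GRHL2 at -0.19 without the vehicle library at 0 days. Deviations of same-numbered libraries correlated at 0.0103 to 0.0284 in VCaP and at -0.125 to 0.0353 in C4-2 cells. Those of differently numbered libraries correlated at -0.0305 to 0.0159 and at -0.0353 to 0.125. In C4-2 cells, with 2 libraries per group, the latter are the same-numbered values with the sign turned and add no information. A pairing by replicate number was not clear from these values. With the replicate block the count for doxycycline with DMSO was 0, with CDH1 at 0.19 (adjusted p = 0.0996) and GRHL2 at -0.23 (0.0767), and the counts of the other comparisons it was fitted to were unchanged. Over all genes, the block moved calls from 790 to 968 in VCaP cells and from 1444 to 908 for doxycycline with DMSO. Under the inhibitor it moved them from 125 to 86 without and from 246 to 161 with doxycycline. For the difference it moved them from 3 to 2. The 4 libraries alone gave 3540 for doxycycline with DMSO and 1173 for the inhibitor with doxycycline. DESeq2 called 302 genes against 790 in VCaP cells, 27 against 73, 169 against 669 and 15 against 53 for doxycycline at 3 days, 30 days and between them, and 5084 against 8083 for DHT. No filter gave 330 against 125 and 406 against 246 for the inhibitor without and with doxycycline, 39 against 3 for the difference, and 222 against 73 and 108 against 53 for doxycycline at 3 days and between the times.

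Some members with no call turned sign when 1 library was left out. Their log2 ranges over all alternative fits were, for doxycycline with DMSO, SNAI1 -0.0132 to 0.28. Inhibitor without doxycycline gave CDH1 -0.00338 to 0.0528, ESRP1 -0.0896 to 0.0128 and GRHL2 -0.0656 to 0.0536. Inhibitor with doxycycline gave SNAI1 -0.0195 to 0.32, CDH1 -0.0033 to 0.0267, EPCAM -0.0264 to 0.16 and ESRP1 -0.0879 to 0.0247. Their difference gave SNAI1 -0.34 to 0.00234, CDH1 -0.0404 to 0.0158 and ESRP1 -0.052 to 0.0607. Doxycycline for 3 days gave ESRP1 -0.00728 to 0.0334. Doxycycline for 30 days gave SNAI2 -0.25 to 0.44 and VIM -0.12 to 0.14. The 30 against 3 days gave SNAI1 -0.33 to 0.20 and EPCAM -0.038 to 0.0722. The difference between tables gave ZEB1 -1.21 to 3.23, VIM -0.17 to 0.16 and GRHL2 -0.0878 to 0.017. ZEB1 in this difference and SNAI2 at 30 days passed the filter on low counts only through their inhibitor and DHT libraries. With no filter, GRHL2 under the inhibitor without doxycycline was at 0.000296 and ESRP1 in the difference of the inhibitor effects at -0.00587. EPCAM under DHT at 30 days had a ratio of 0.979 with total-count scaling.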
